A study of Mus musculus with 6 samples.

Results

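The transcripts described here are the 1636 expressed long noncoding RNA (lncRNA) transcripts of mouse lung that carry a UCSC identifier, a name that starts with uc. They were chosen from 10103 uc transcripts in a table of 31549 lncRNA transcripts, as those that reached 0.5 FPKM in at least 1 of 6 libraries. FPKM is the number of fragments per kilobase of transcript, scaled for library size, so it can be compared between transcripts of different length. Another 5136 lncRNA transcripts from other annotations reached the same level, which makes 6772 tested in all. Of the remaining uc transcripts, 7203 were listed at 0 in all 6 libraries and 1264 stayed above 0 but under 0.5 FPKM.

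Total RNA was sequenced after removal of rRNA. The PBLI group (primary blast lung injury) was C57BL/6 male mice of 8 to 10 weeks whose chest was exposed to a blast wave of 0.5 bar, with the right upper lobe taken at 6 h. The Control group was mice of the same strain, sex and age that were anesthetized like the PBLI mice and not exposed, labelled as untreated. Each library pooled lobe tissue of 2 mice, so there were 3 libraries and 6 mice per group, and a pool is the unit of replication. In the tables the PBLI libraries are called G3, G4 and G5, names that match no sample title, so they are known by group alone.

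UCSC's gene set was built by placing sequenced cDNAs on the genome, and a cDNA that showed no convincing open reading frame was kept as a noncoding transcript. Such a set holds true lncRNAs, such as the host transcripts of small nucleolar RNAs, and also spliced or partial forms of coding genes. Lung lncRNAs are known from cells of the airway epithelium, the endothelium and resident or recruited leukocytes, and many act in the nucleus on chromatin or splicing. In lung tissue measured in bulk, fewer cells of a type and less RNA per cell cannot be told apart.

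By their given class, most members lay on top of coding genes. For 1126 of the 1636 (68.8%) that class was exon sense-overlapping, which stands for shared exon sequence and strand with a coding gene. Another 207 (12.7%) were intergenic, 78 natural antisense, 59 intron sense-overlapping, 43 bidirectional and 30 intronic antisense, and 93 had more than 1 relationship. Among the 5136 expressed lncRNAs of other annotations the order was reversed, with 2559 intergenic (49.8%) and 535 exon sense-overlapping (10.4%). Of the members, 745 (45.5%) carried the symbol of a gene that GENCODE M21 lists as protein coding, 55 that of a noncoding gene or pseudogene, and 682 were named by the accession of their cDNA. The accession-named ones include AK155917, which overlaps Lpl, the lipase that frees fatty acids from circulating lipoproteins.

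By chromosome, 120 members lay on chromosome 7, 37 on X and 3 on Y, and 9 in the mitochondrial genome. Their median length was 1633 nt, against 1328.5 nt for the other expressed lncRNAs. The 1636 transcripts had 1518 gene names, and 93 names covered more than 1 member. Levels were mostly low, with a median over members of 1.22 FPKM against 0.830 FPKM for the others. In all 6 libraries 710 members reached 0.5 FPKM, and 333 did so in a single library. Members that reached it in PBLI libraries alone numbered 181, against 266 in Control libraries alone, and these had to differ because of how they were chosen.

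For 30 nuclear members of at least 200 nt the locus was exactly as long as the transcript, so their position is known to the base and they consist of 1 exon. By GENCODE M21 on GRCm38 (mm10), 17 of these 30 lay in an untranslated region of a coding gene on the same strand. The table called 24 of the 30 intergenic, and 16 of those 24 lay in such a region. Among them were BC023483 in Kif26b, AK030646 in Cers4, BC023202 in Mboat2, BC003348 in Sesn3, AB349340 in Mdm4 and DQ716436 in Eif4ebp2. Another 10 of the 30 overlapped no GENCODE gene. The exon sense-overlapping class was also not always borne out by GENCODE M21. With that class, AK046130 overlapped no gene and BC043934 a noncoding gene alone. AK149307 and AK169958 lay within coding genes, with 0% and 3.07% of their length in an untranslated region and 0% in coding sequence. Qoo609 had 68.7% of its length in an untranslated region. AK149307 also overlapped the noncoding gene 3222401L13Rik on its strand. Overlap with exons of noncoding forms of coding genes was not checked, so the class is not settled for AK149307 and AK169958. The last 60 bases of these transcripts were searched, on the transcript's strand and on the other strand, for the poly(A) signal AATAAA or its common variant ATTAAA, which mark where an RNA is cut and tailed. A signal was present on the transcript's strand in 18 of 30 members (60%), against 8 of 26 (30.8%) uc transcripts with such a locus that did not reach 0.5 FPKM. On the other strand 3 of 30 held one, and 1 of 30 did in a window of the same length at the middle of the transcript.

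The 3′ ends below are those of 7 of the 10 members in no GENCODE gene, with the poly(A) signal in capitals where there is one. They are the 5 that hold a signal, shown for where in the end it lies, and 2 without one that were picked on their values. AK195755, BC099561 and DQ703267, the other members in no gene, hold no signal and are not shown. A signal is a match of letters, and whether the transcripts end there was not tested. The ends are the last 60 bases on the transcript's strand, from the RefSeq GRCm38 genome.
AK171159 (uc008hmc.1), chr19:41567576-41567635, plus strand: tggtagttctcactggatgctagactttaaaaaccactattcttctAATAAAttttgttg
AK047676 (uc007oua.1), chr12:102272432-102272491, plus strand: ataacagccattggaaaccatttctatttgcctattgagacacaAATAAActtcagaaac
AK086914 (uc009tee.1), chrX:52050891-52050950, minus strand: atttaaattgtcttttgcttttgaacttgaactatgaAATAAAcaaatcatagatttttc
AK083054 (uc008tic.1), chr4:72109949-72110008, minus strand: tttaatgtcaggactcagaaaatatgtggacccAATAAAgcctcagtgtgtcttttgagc
AK046130 (uc012adx.1), chr16:28157783-28157842, minus strand: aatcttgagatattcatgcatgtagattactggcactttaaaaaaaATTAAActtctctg
BC057675 (uc029rzf.1), chr13:21764229-21764288, minus strand: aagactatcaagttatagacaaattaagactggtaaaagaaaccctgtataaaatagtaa
AK145129 (uc008lsd.2), chr2:118557459-118557518, plus strand: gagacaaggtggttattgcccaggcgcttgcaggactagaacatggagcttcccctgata

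The first 5 of these ends carry a signal, and in each of these transcripts the groups overlapped. AK171159 had 15.4, 15.6 and 14.1 FPKM in PBLI libraries, against 14.4, 16.0 and 14.4 FPKM in Control libraries. AK047676 had 8.46, 7.74 and 7.85 FPKM in PBLI libraries, against 6.79, 7.69 and 9.18 FPKM in Control libraries. These 2 had the smallest differences of the 5, at 0.01 and 0.03 on the log2(FPKM + 0.5) scale. AK086914 had 9.03, 10.6 and 7.95 FPKM in PBLI libraries, against 11.2, 11.8 and 10.2 FPKM in Control libraries, a difference of -0.26. AK083054 had 4.73, 5.53 and 6.83 FPKM in PBLI libraries, against 4.54, 5.66 and 4.08 FPKM in Control libraries, a difference of 0.23. AK046130 had 0.113, 0.0800 and 0.124 FPKM in PBLI libraries, against 0.0991, 0.647 and 0.3005 FPKM in Control libraries, a difference of -0.44, and became a member through Control 2 alone. The last 2 ends have no signal, and the genome marks 98.5% of BC057675 and 99.2% of AK145129 as repeat sequence, so fragments of other copies may be counted there. BC057675 had 0.529, 0.899 and 2.00 FPKM in PBLI libraries, against 0.0697, 0.0701 and 0.121 FPKM in Control libraries. AK145129 was lower, with 1.16, 2.72 and 2.43 FPKM in PBLI libraries, against 3.27, 4.15 and 6.76 FPKM in Control libraries. Both had groups that did not overlap, and neither passed the adjusted threshold (limma, adjusted p = 0.405 and 0.466).

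The tissue carried its lung markers, with a sum of 6 lung identity mRNAs, surfactant genes among them, of 27659 to 37658 FPKM in PBLI libraries, against 28957 to 40213 FPKM in Control libraries. The sum of 7 neutrophil mRNAs was 369 to 2260 FPKM in PBLI libraries, against 168 to 280 FPKM in Control libraries, and 1 of the 7 passed. Relative depth, read from what a single fragment was worth in low mRNAs, was 1.24 to 1.60 times that of Control 1 in PBLI libraries and 0.989 to 1.15 times in the other Control libraries, so every PBLI library was deeper. The median difference over all 6772 lncRNA transcripts was -0.14 on the log2 scale and that over the members was -0.11. With TMM factors these medians were -0.02 and 0.04. No marker sum was tested, and in the other marker sets given next none of the mRNAs passed. The sum of 5 cycling mRNAs was 11.8 to 17.05 FPKM in PBLI libraries, against 17.5 to 101 FPKM in Control libraries, and that of 4 B cell mRNAs was 12.6 to 55.2 FPKM in PBLI libraries, against 47.7 to 76.3 FPKM in Control libraries. The sum of 4 adipocyte mRNAs was 13.05 to 37.3 FPKM in PBLI libraries, against 6.07 to 16.5 FPKM in Control libraries. The B cell and adipocyte ranges overlapped between the groups, and the cycling ranges did not. The part of these cells' RNA and of depth in the results below was not tested.

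The members took 7.11%, 7.49% and 7.49% of all lncRNA FPKM in PBLI libraries, against 9.37%, 8.69% and 7.51% in Control libraries. Every PBLI library was below every Control library, by a margin that was narrow for Control 3 (exact permutation test, two-sided p = 0.1, the smallest that 3 against 3 allows, adjusted p = 0.3 over 9 such tests). Without the 10 highest members the shares were 4.75%, 5.07% and 4.87% in PBLI libraries, against 5.91%, 5.66% and 4.88% in Control libraries, and the groups overlapped (exact permutation test, two-sided p = 0.2). The difference, PBLI minus Control, was -1.16 percentage points with all members, -0.59 without those 10, and -0.73 with all members but without Control 1. All lncRNA FPKM includes the transcripts of other annotations, of which the highest had a mean of 59341 FPKM. Its part in the share was not tested. The members' summed FPKM was 9720, 9888 and 9504 in PBLI libraries, against 10854, 10539 and 9973 in Control libraries (exact permutation test, two-sided p = 0.1). The number of uc transcripts at 0.5 FPKM was 1098, 1109 and 1046 in PBLI libraries, against 1107, 1143 and 1126 in Control libraries (exact permutation test, two-sided p = 0.2). The groups overlapped here, and the difference of -41.0 was -21.8 without PBLI G5.

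A few members held much of the signal. The highest was uc012ath.2, Rn45s, the precursor of ribosomal RNA, with 1201, 1327 and 1470 FPKM in PBLI libraries, against 1435, 1687 and 1372 FPKM in Control libraries. It alone was 12.4% to 15.5% of the members' FPKM in PBLI libraries and 13.2% to 16.0% in Control libraries. Rn45s is a multicopy gene and the libraries were depleted of rRNA, so its level is uncertain. The 9 mitochondrial members made up another 15.1% to 17.4% in PBLI libraries and 16.3% to 17.8% in Control libraries. The largest of them by mean were AK140265, which lies at the small ribosomal RNA gene, and BC071253, on the strand of mt-Nd6.

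**Figure D1:**
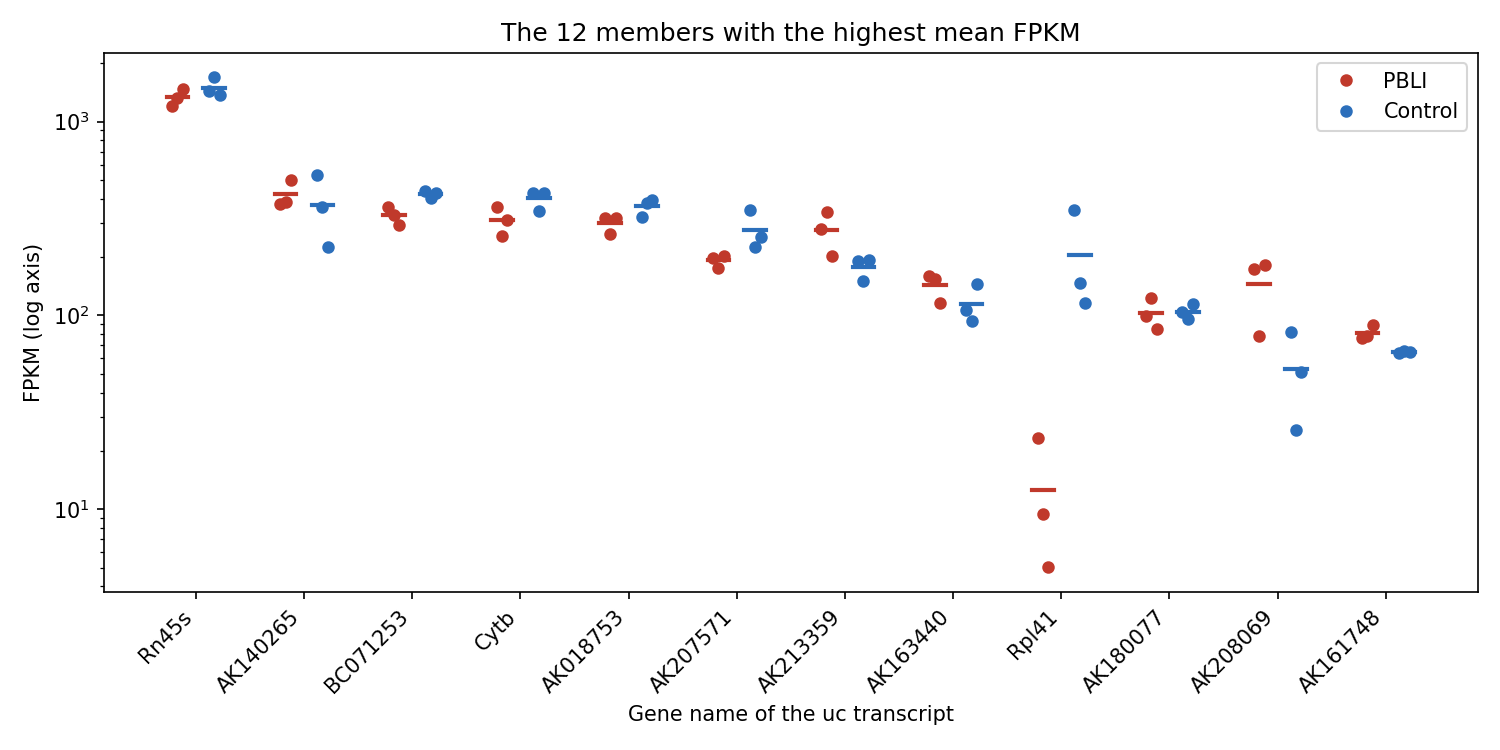
FPKM (log axis) of the 12 members with the highest mean, in order of that mean. Red points on the left are PBLI libraries and blue points on the right Control libraries, 3 each, with a bar at the mean. Rn45s stands at 1201 FPKM or more in every library, and Rpl41 is the one whose groups lie furthest apart.

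BC071253 had 363, 330 and 292 FPKM in PBLI libraries, against 440, 405 and 428 FPKM in Control libraries. Its groups did not overlap, with a difference of -0.37 ± 0.11 (SE) on the log2(FPKM + 0.5) scale, which did not pass (limma, adjusted p = 0.419). Nuclear members among the 12 included AK213359 on Mcl1, the survival factor of the BCL2 family. It had 280, 341 and 203 FPKM in PBLI libraries, against 191, 151 and 194 FPKM in Control libraries. AK207571 on Sep15, a selenoprotein gene, had 198, 176 and 203 FPKM in PBLI libraries, against 351, 224 and 252 FPKM in Control libraries. AK161748 on Slco2a1, the prostaglandin transporter, had 76.6, 78.5 and 89.3 FPKM in PBLI libraries, against 63.6, 65.9 and 64.5 FPKM in Control libraries. In these 3 the groups stood apart. AK208069 on Gsto1, a glutathione transferase gene, had 174, 78.4 and 182 FPKM in PBLI libraries, against 82.0, 25.6 and 50.9 FPKM in Control libraries. AK180077 on Pink1, a kinase of mitochondrial quality control, had 99.0, 123 and 85.0 FPKM in PBLI libraries, against 104, 96.2 and 114 FPKM in Control libraries. In both of these the groups overlapped, and none of the 5 passed the adjusted threshold (limma).

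Over all 6772 lncRNA transcripts, limma called 2 at an adjusted p under 0.05, both lower in PBLI and both members. That is 0.0295% of those tested, against 0.0% called higher. Of 14760 mRNAs tested, 1.15% were called higher and 0.928% lower. Upward, 63 members (3.85%) had an unadjusted p under 0.05, against 2.73% of all tested transcripts. Lower in PBLI at an unadjusted p under 0.05 were 108 members (6.60%), against 6.51% of all tested.

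The first called member was uc029wlz.1, named AB347501, a transcript of 319 nt that the table gives within a locus at chr7:75767712-75782099 on the minus strand, so its own position is not known to the base. It was listed at under 0.01 FPKM in all 3 PBLI libraries, against 20.6, 19.1 and 14.5 FPKM in Control libraries. The difference was -5.20 ± 0.20 (SE) on the log2(FPKM + 0.5) scale (limma, adjusted p = 0.000222), and its size depends on the pseudocount, since the PBLI libraries are listed near 0. The Control libraries were close to each other and far from all PBLI libraries. The same locus held TCONS_00029481, a lncRNA of 13000 nt, with 58.0, 61.1 and 52.5 FPKM in PBLI libraries, against 68.3, 79.8 and 77.1 FPKM in Control libraries. That neighbour was also lower with groups apart, at a difference of -0.39 on the log2 scale, and did not pass (limma, adjusted p = 0.427). Without Control 2 the call on uc029wlz.1 was lost (limma, adjusted p = 0.052).

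The second was uc007twb.1, a transcript of 333 nt of Mrpl52, which encodes a protein of the mitochondrial ribosome, within a locus at chr14:54426909-54429750 on the plus strand. It had 0.00131, 0.00171 and 0.00175 FPKM in PBLI libraries, against 29.4, 23.6 and 9.88 FPKM in Control libraries. The difference was -5.28 ± 0.39 (SE) on the same scale (limma, adjusted p = 0.00926). The Mrpl52 mRNA stood the other way, with 29.2, 32.0 and 44.8 FPKM in PBLI libraries, against 12.1, 19.1 and 22.0 FPKM in Control libraries, and did not pass (limma, adjusted p = 0.0930). The uc transcript and the mRNA share exon sequence and their values stand in separate tables. How fragments that fit both were assigned was not given in the sources used here, and whether their assignment or the RNA differed was not tested. The call on uc007twb.1 held without Control 3 and was lost when any other library was left out, with adjusted p of 0.104 to 0.262 (limma).

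**Figure D2:**
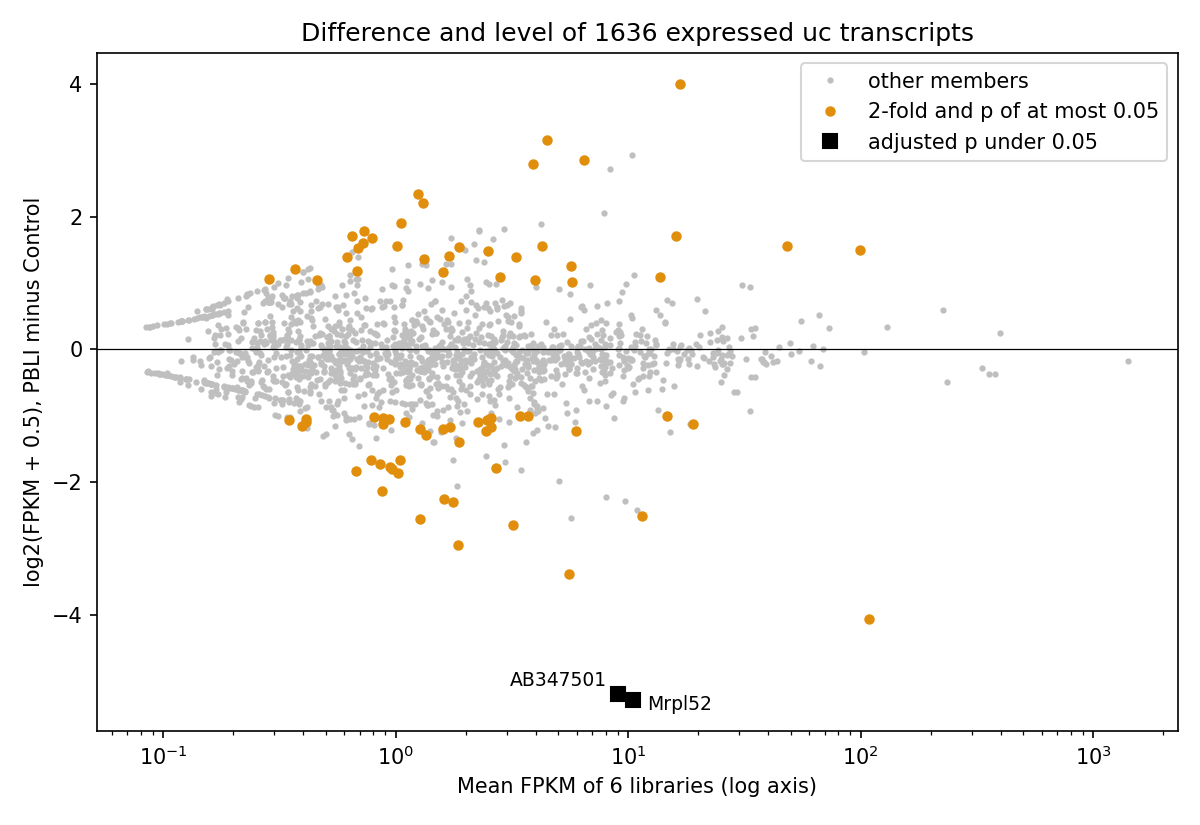
Difference between PBLI and Control on the log2(FPKM + 0.5) scale against mean FPKM (log axis) for the 1636 members. Black squares are the 2 called members, near -5.2, and orange points are past 2-fold with an unadjusted p of at most 0.05.

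Rpl41, a gene of the large ribosomal subunit, showed the same layout and was chosen after its values were seen. Its member uc029rju.1, of 345 nt, had 23.3, 9.43 and 5.01 FPKM in PBLI libraries, against 351, 147 and 115 FPKM in Control libraries. The Rpl41 mRNA had 473, 479 and 454 FPKM in PBLI libraries, against 74.5, 323 and 317 FPKM in Control libraries. Neither passed (limma, adjusted p = 0.123 for the member and 0.247 for the mRNA), and Rpl41 has many processed copies, so its fragments may be split.

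Further members listed near 0 in all PBLI libraries and above 1 FPKM in all Control libraries, also picked on their values, were uc009tjw.1 of Mtmr1, uc009qyz.1 of Gm2382 and AK204212, which runs antisense to Gnb2, a G protein subunit gene. AK204212 was listed at 0 in all PBLI libraries, against 3.76, 5.72 and 1.68 FPKM in Control libraries, and the Gnb2 mRNA had 91.3, 97.3 and 109.5 FPKM in PBLI libraries, against 91.3, 106 and 89.4 FPKM in Control libraries. Mtmr1, a phosphoinositide phosphatase, had a member with 3.02, 1.48 and 3.13 FPKM in Control libraries. Its mRNA had 14.5, 13.2 and 14.6 FPKM in PBLI libraries, against 13, 16.0 and 13.6 FPKM in Control libraries. Man2a1, a Golgi mannosidase, likewise picked on its values, had a member with 0.00396, 0.00302 and 0.782 FPKM in PBLI libraries, against 2.13, 4.63 and 2.11 FPKM in Control libraries. The Man2a1 mRNA rose, with 50.4, 49.2 and 47.7 FPKM in PBLI libraries, against 36.9, 35.6 and 33.5 FPKM in Control libraries (limma, adjusted p = 0.0357).

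**Figure D3:**
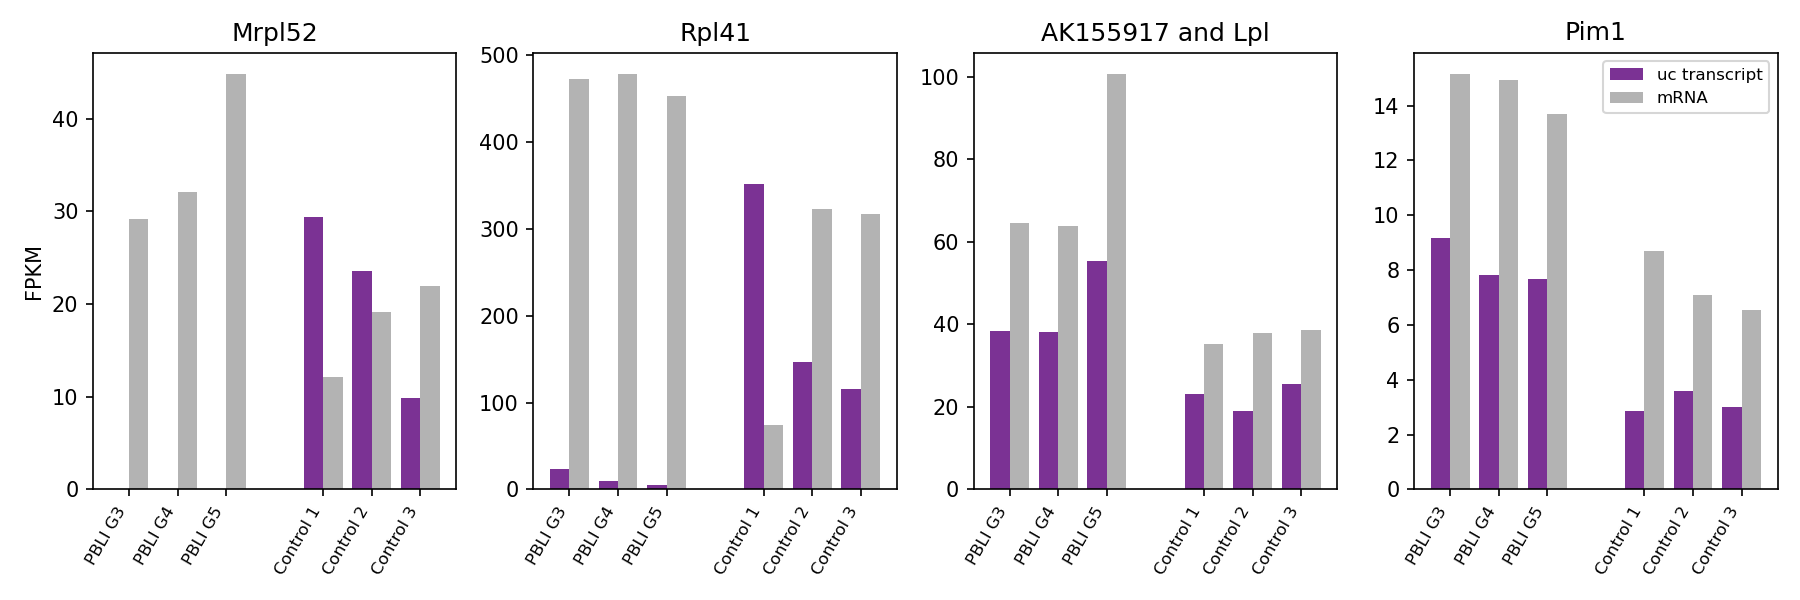
FPKM of the uc transcript (purple) and of the mRNA (grey) in each library, PBLI libraries left and Control libraries right, for Mrpl52, Rpl41, AK155917 with Lpl, and Pim1. For Mrpl52 the purple bar is near 0 in all PBLI libraries and 9.88 to 29.4 FPKM in Control libraries, and for Pim1 both bars are higher in PBLI.

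By the thresholds that the study set for mRNAs, 2-fold with an unadjusted p no higher than 0.05, 33 members were higher in PBLI (2.02%, against 1.39% of all tested) and 43 lower (2.63%, against 2.10% of all tested). The split depends on scaling, with 45 higher and 29 lower under TMM factors and 58 higher and 23 lower after median centring. Groups did not overlap for 77 members (4.71%) that were higher in PBLI, against 3.84% of all tested, and for 190 (11.6%) that were lower, against 12.8% of all tested. Values under 0.01 FPKM were taken as 0 for this count.

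No member passed upward, so 9 of the 10 with the smallest unadjusted p are described, all with groups that did not overlap. The first was uc008btb.1 of Pim1, a serine/threonine kinase induced by cytokines. It had 9.18, 7.81 and 7.66 FPKM in PBLI libraries, against 2.87, 3.59 and 3.00 FPKM in Control libraries, a difference of 1.26 ± 0.17 (SE) (limma, adjusted p = 0.122). The Pim1 mRNA rose, with 15.2, 14.9 and 13.7 FPKM in PBLI libraries, against 8.68, 7.10 and 6.53 FPKM in Control libraries (limma, adjusted p = 0.0212).

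A higher member beside a called mRNA was also seen at 3 other genes. AK155917 on Lpl had 38.4, 38.1 and 55.4 FPKM in PBLI libraries, against 23.0, 19 and 25.5 FPKM in Control libraries. Lpl is also an adipocyte gene, and the sum of 4 adipocyte mRNAs given above was 13.05 to 37.3 FPKM in PBLI libraries, against 6.07 to 16.5 FPKM in Control libraries. These ranges overlapped. The Lpl mRNA rose by 0.99 on the log2 scale (limma, adjusted p = 0.0379), whereas a second member on Lpl, AK170106, had 1.09, 0.849 and 1.38 FPKM in PBLI libraries, against 1.25, 1.72 and 1.38 FPKM in Control libraries. AK217614 on Xbp1, a transcription factor of the unfolded protein response, had 73.0, 81.3 and 80.0 FPKM in PBLI libraries, against 53.9, 55.0 and 54.6 FPKM in Control libraries. The Xbp1 mRNA rose by 0.53 (limma, adjusted p = 0.0321). AK216824 in an intron of Entpd1, the ectonucleotidase CD39, had 0.560, 2.40 and 0.941 FPKM in PBLI libraries and was listed at 0 in all Control libraries. The Entpd1 mRNA rose by 1.02 (limma, adjusted p = 0.0290).

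Another 5 were higher beside an mRNA that was not called. Xdh, the purine-oxidizing enzyme xanthine dehydrogenase, had a member with 14.2, 11.8 and 13.4 FPKM in PBLI libraries, against 4.51, 7.26 and 7.74 FPKM in Control libraries. Its mRNA differed by 0.80 (limma, adjusted p = 0.0975). Tagln2, an actin-binding protein, had a member with 58.1, 74.3 and 78.6 FPKM in PBLI libraries, against 19.7, 15.1 and 42.9 FPKM in Control libraries, while its mRNA differed by 0.16. AK048446 on Ikbkg, the NF-κB regulator NEMO, had 3.49, 1.99 and 1.92 FPKM in PBLI libraries, against under 0.01, under 0.01 and 0.465 FPKM in Control libraries. The members of Chchd1 and of AK013192 on Csnk1g2 made up the 5, with differences of 1.49 and 2.34. The Chchd1 and Csnk1g2 mRNAs differed by 0.13 and -0.08. AK013192 was listed at under 0.01 FPKM in all Control libraries, so it became a member through PBLI libraries alone.

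Another 3 higher members, on inflammation or stress genes, were picked after their values were seen. Gp49a, in the locus of the inhibitory receptor Lilrb4 of myeloid cells, had 10.3, 6.67 and 3.03 FPKM in PBLI libraries, against 2.90, 0.809 and 1.86 FPKM in Control libraries. The Lilrb4 mRNA rose by 1.19 (limma, adjusted p = 0.00825), and since these receptor genes are near copies, fragments may be split between them. AK218698 on Sphk1, the kinase that makes sphingosine 1-phosphate, had 17.9, 13.8 and 43.9 FPKM in PBLI libraries, against 4.21, 9.03 and 6.92 FPKM in Control libraries. A second uc transcript at that locus, AK009121, had 2.89, 2.00 and 5.74 FPKM in PBLI libraries, against 1.76, 3.36 and 3.43 FPKM in Control libraries, so its groups overlapped. Sat1, the rate-limiting enzyme of polyamine breakdown, had a member with 23.0, 22.4 and 11.6 FPKM in PBLI libraries, against 7.24, 9.74 and 7.97 FPKM in Control libraries. The 3 picked members had adjusted p over 0.05 (limma, 0.399 to 0.450).

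The differences of the members were set beside those of the mRNA that they overlap by their given class. Over 1062 exon sense-overlapping members with a tested mRNA, Pearson's r between the 2 log2 differences was 0.05 and Spearman's rho 0.10. Over 51 intron sense-overlapping members r was 0.61 and rho 0.29. Over the 23 members with a called mRNA whose first given class was exon sense-overlapping, r was 0.39 and rho 0.52. These are descriptions over transcripts that share libraries and sometimes genes. Of those 23, 16 members had a difference of the same sign, 9 of 14 beside a higher mRNA and 7 of 9 beside a lower one. Among the 9 higher ones, the members on Pxdc1, Gabarapl1 and Csf2rb reached 0.5 FPKM in a single PBLI library and in no Control library. Their sign thus followed from how members were chosen. The same holds for the member on Figf, among the 7 lower ones, which reached it in Control 2 alone. It also holds for AK006748 on Junb, of opposite sign to its mRNA. Of the 33 members that were 2-fold higher, 31 overlapped a tested mRNA, whose difference was above 0 for 18, with 4 of these 2-fold higher, and below 0 for 13. Of the 43 that were 2-fold lower in PBLI, 27 had such an mRNA, whose difference was above 0 for 17 and below 0 for 10, with 2 of these 2-fold lower.

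Lower members beside a lower mRNA, picked on their values, included Iigp1, an interferon-inducible GTPase. Its member had 1.04, 2.06 and 0.969 FPKM in PBLI libraries, against 5.90, 3.29 and 2.21 FPKM in Control libraries, and did not pass (limma, adjusted p = 0.453). The Iigp1 mRNA fell, with 19.8, 28.6 and 23.0 FPKM in PBLI libraries, against 65.6, 47.6 and 47.5 FPKM in Control libraries (limma, adjusted p = 0.0238). AK020645 on Plekha6, a junction-associated PH domain protein, had 0.644, 0.338 and 0.698 FPKM in PBLI libraries, against 2.89, 2.22 and 1.32 FPKM in Control libraries. In both, every PBLI library was below every Control library, and the Plekha6 mRNA also fell, by a log2 difference of -1.03 (limma, adjusted p = 0.0254). A member did not follow its mRNA at Junb, the AP-1 subunit, whose mRNA rose (limma, adjusted p = 0.00825) beside AK006748, also picked on its values and listed at 0 in 4 of 6 libraries.

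**Figure D4:**
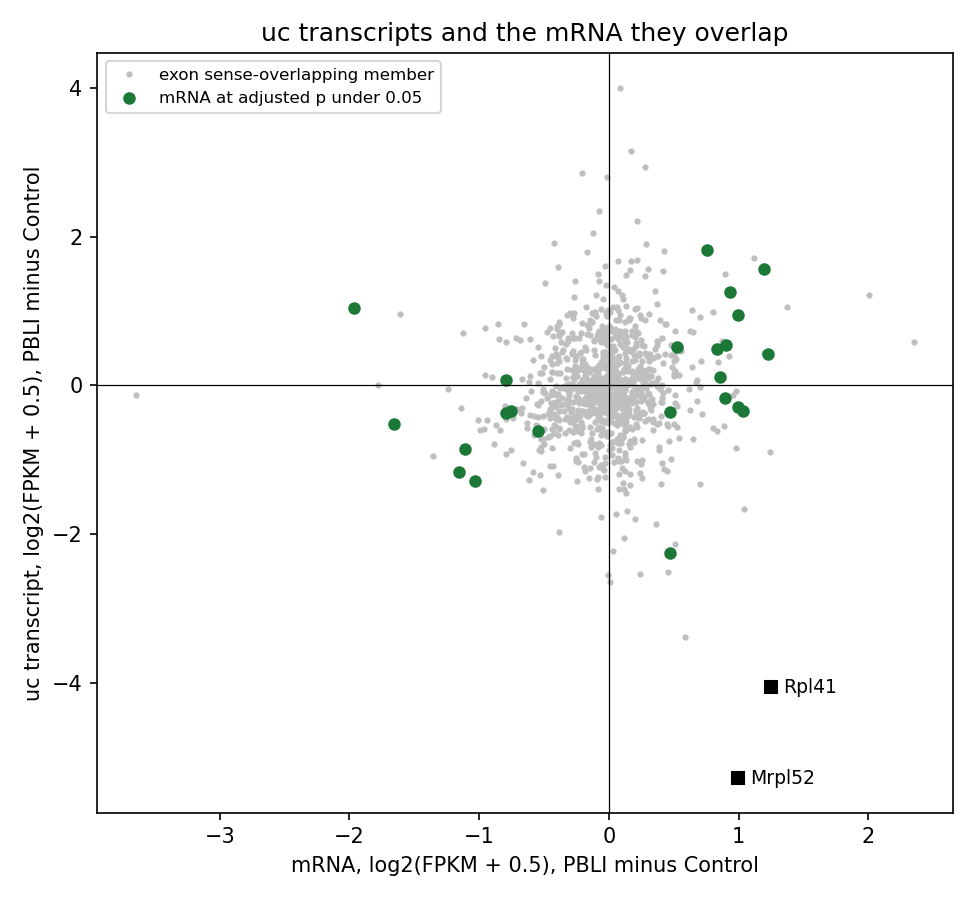
Difference of each exon sense-overlapping member against that of the mRNA it overlaps by that class, both as PBLI minus Control on the log2(FPKM + 0.5) scale. Green points have an mRNA at an adjusted p under 0.05, and Mrpl52 and Rpl41, black squares, lie at the lower right, with a lower member and a higher mRNA.

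The members that stand in 1 exon inside an untranslated region can be set beside their coding gene. For 15 of them the mRNA was tested, and 10 had a difference of the same sign (Pearson's r = 0.78, Spearman's rho = 0.58, as a description over transcripts). The 3 named next were picked on their values. BC023483 in Kif26b, a kinesin family gene, had 1.27, 1.65 and 0.840 FPKM in PBLI libraries, against 2.64, 4.27 and 3.96 FPKM in Control libraries, a difference of -1.24 beside -1.07 for the Kif26b mRNA. BC023202 in Mboat2 differed by -0.62 beside -0.57 for the mRNA, and AK030646 in Cers4, a ceramide synthase, by -0.53 beside -0.50. None of these passed in either table (limma).

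Of 207 intergenic members, 36 (17.4%) were lower with groups that did not overlap and 4 (1.93%) higher, against 12.8% and 3.84% of all tested, and their median difference was -0.18 against -0.14 over all tested. E030019B13Rik, which GENCODE names Sfta3-ps, had 28.8, 32.2 and 28.3 FPKM in PBLI libraries, against 35.7, 43.1 and 41.4 FPKM in Control libraries. A230057D06Rik and A330076H08Rik lie next to each other on chromosome 7. The A230057D06Rik member had 1.5, 1.26 and 0.757 FPKM in PBLI libraries, against 2.45, 2.96 and 2.08 FPKM in Control libraries. The A330076H08Rik member had 1.65, 2.14 and 0.659 FPKM in PBLI libraries, against 3.58, 3.93 and 2.86 FPKM in Control libraries. These 3 were picked on their values, and none passed (limma, adjusted p = 0.423 to 0.428).

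Of 78 natural antisense members, 14 (17.9%) were lower with groups apart and 2 (2.56%) higher, and of 43 bidirectional members 10 (23.3%) were lower and 0 higher, beside the same 12.8% and 3.84% of all tested. At an unadjusted p under 0.05, limma gave 6 (14.0%) lower and 0 higher among the bidirectional members, against 6.51% and 2.73% of all tested. Among the natural antisense members it gave 6 (7.69%) lower, near the share of all tested, and 1 (1.28%) higher. The median difference was -0.25 for natural antisense members and -0.15 for bidirectional ones, beside -0.14 over all tested, so the bidirectional median did not stand apart. A530072M11Rik, picked on its values, starts beside Ripk2, a kinase of innate immune signalling. It had 1.20, 0.876 and 0.592 FPKM in PBLI libraries, against 2.62, 2.03 and 1.70 FPKM in Control libraries. The Ripk2 mRNA had 8.40, 6.36 and 5.78 FPKM in PBLI libraries, against 6.71, 6.66 and 6.80 FPKM in Control libraries, and these groups overlapped.

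Lists of well-known lncRNAs had few members here, where transcripts of other annotations are not counted. The values given are those of single uc transcripts and not of whole genes. Of 22 names of snoRNA hosts, 3 had a member (Gas5, Snhg4 and Snhg12). Nuclear lncRNAs gave 2 Pvt1 transcripts, imprinted ones Meg3, microRNA hosts Dleu2 and Meg3, and the lung and mesenchyme list 2 transcripts of 9530026P05Rik and Meg3. The stress and p53 list held Gas5 and Pvt1 again, and none of the 21 immune names had a uc transcript. No list member was called in either direction, and none had an unadjusted p under 0.05 (limma). Dleu2, the host of miR-15a and miR-16-1, had 13, 16.2 and 8.77 FPKM in PBLI libraries, against 13.9, 13.1 and 12.8 FPKM in Control libraries. The Gas5 member, uc007dex.1 of 1057 nt, had 2.84, 2.46 and 1.02 FPKM in PBLI libraries, against 3.59 FPKM in Control 1 and under 0.01 FPKM in Control 2 and Control 3. BC096391, which lies at Snhg8 and was picked on its values, had 33.9, 38.8 and 44.4 FPKM in PBLI libraries, against 29.9, 28.4 and 35.1 FPKM in Control libraries, and these overlapped. A Snhg8 transcript of 785 nt from another annotation, at the same locus, had 3.52, 2.10 and 5.77 FPKM in PBLI libraries, against 4.10, 3.68 and 5.29 FPKM in Control libraries. Its groups also overlapped, and its log2 difference was -0.25, against 0.32 for BC096391.

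Short members were the least certain. The median SD between libraries of 1 group, on the log2(FPKM + 0.5) scale, was 2.00 for 20 members of up to 200 nt, 0.99 for 133 of over 200 to 350 nt, 0.61 for 399 of up to 1000 nt, 0.38 for 559 of up to 2500 nt and 0.33 for 525 longer ones. Of the 20 shortest members, 16 had a library under 0.01 FPKM and another at 5 FPKM or more. The largest positive difference, 4.0 ± 1.34 (SE), was that of AK217931, a member of 155 nt picked on its value. It had 32.6, 35.5 and 14.7 FPKM in PBLI libraries, against 0, 0 and 17.1 FPKM in Control libraries, so its groups overlapped through Control 3 and PBLI G5 (limma, adjusted p = 0.453). Both called members, at 319 and 333 nt, lie in the second class.

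**Figure D5:**
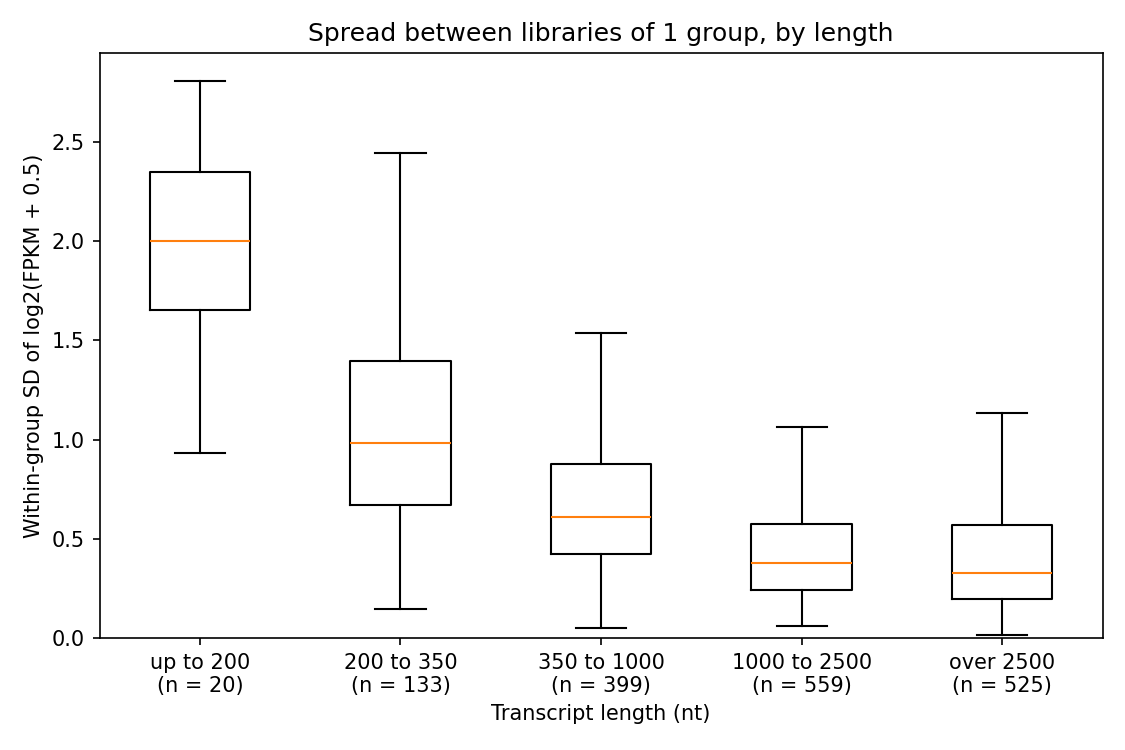
SD between libraries of 1 group on the log2(FPKM + 0.5) scale, by transcript length. Boxes span the quartiles with the median as a line and whiskers reach the farthest values not drawn as outliers, and the medians are 2.00, 0.99, 0.61, 0.38 and 0.33 in order of length.

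At the threshold of 0.5 FPKM, the members with the lowest maximum were 5730590G19Rik (0.502 FPKM), 1700025G04Rik (0.504 FPKM) and Enox1 (0.504 FPKM). The uc transcripts just under it were AK050859 (0.499 FPKM), BC048859 (0.497 FPKM) and Dcp1a (0.496 FPKM).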

How the data were processed

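RNA of 3 PBLI pools and 3 Control pools was sequenced with a stranded total RNA kit. The submitters' processing notes name CASAVA (1.8) and STAR (2.5.1b). The study's methods name cutadapt, hisat2 on mm10 and cuffdiff for the mRNAs, and which tool made the lncRNA values was not given in the sources used here. All deposited values used are FPKM per transcript or gene as the authors made them. Another 12 columns of values per library, headed as counts, were left out, since their values are fractional and since, with them, the PBLI group would have had more columns than samples in a table. No count test was run. Differences were tested with limma (3.58.1, R 4.3.3, mean-variance trend) as log2(FPKM + 0.5), adjusted by Benjamini and Hochberg's method over all 6772 lncRNA transcripts that passed the expression threshold, and likewise over 14760 mRNAs. P-values measure the spread between pools. Sums and counts per library got an exact permutation test. The mRNA beside a member is the first associated gene in the table.

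The members, the gene lists and the marker lists were chosen with earlier results of these data known. Named members are those called (or, with none called, the 10 with the smallest p in that direction), the 12 with the highest mean, up to 4 per list and those at the threshold; others are said to be picked on their values. Of the members this rule names, 1 is not reported here. Total depth is not known from FPKM. Relative depth is the most common ratio to Control 1 among 208 to 249 mRNAs low enough to hold single fragments, and the precision of a value rests on 3 pools. The fit was tested on data simulated with normal noise, with changes placed in uc transcripts with a mean of at least 1 FPKM. It found 66.0% of 2-fold and 99.4% of 4-fold changes, with a mean of 7.6 false calls. The simulated spread followed level and not length, so this does not cover the wide spread of short members. Alternatives were other pseudocounts, filters, scalings, weights, sums per gene and leaving out each library. Python (3.11.15), pandas (2.3.3), numpy (2.4.6) and matplotlib (3.10.9) were used.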

Additional observations from a re-analysis of the deposited data

How the results depend on the processing

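The number of members called lower in PBLI was 2. It was 4 with a pseudocount of 0.1 and 1 with no filter on low FPKM, and 0 to 3 when each library was left out in turn. The number called higher was 0, and 0 to 1 when each library was left out. Among lncRNAs of other annotations, 0 were called lower, 1 with a pseudocount of 0.1 and 7 with no filter. Of members 2-fold higher with an unadjusted p of at most 0.05, the 33 became 58 after median centring. Of those 2-fold lower, the 43 became 68 with a pseudocount of 0.1, 24 with a pseudocount of 1, 26 with a mean of at least 1 FPKM and 23 after median centring. The difference in the number of expressed uc transcripts, PBLI minus Control, was -41.0 at 0.5 FPKM, -3.67 at 0.1 FPKM and -53.3 to -21.8 when each library was left out. Of 961 values of 65 named members under alternatives, 951 kept their side of the threshold and 23 turned direction, none of them called. uc029wlz.1 lost its call without Control 2 alone. uc007twb.1 lost its call with no filter (adjusted p = 0.0759) and with 5 of the 6 libraries left out singly. The members of AK204212 and Mtmr1 reached adjusted p = 0.0496 with a pseudocount of 0.1, and the Cox2 member 0.00508 without Control 3. The cause was not tested. The count tests planned as alternatives were not run, since the count columns were not used. No paired analysis was possible because the PBLI columns carry no sample number. The study also describes no pairing that such an analysis could use. Its mice were divided into the groups at random, and no matching of Control pools to PBLI pools is reported.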

Other observations

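T cell receptor chains were listed among the uc lncRNAs, 15 members on chromosomes 6 and 14 that derive from rearranged cDNAs. Their summed FPKM was 15.9, 19.3 and 5.81 in PBLI libraries, against 29.1, 25.6 and 15.6 in Control libraries, so the groups overlapped. None had an unadjusted p under 0.05 in either direction (limma, lowest adjusted p = 0.547), and none had groups apart. The sum of 5 T cell mRNAs was 9.47 to 16.2 FPKM in PBLI libraries, against 16.8 to 19.6 FPKM in Control libraries. Its part in the receptor members was not tested.

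The Cox2 member, a transcript of 690 nt over mt-Co2, the second subunit of cytochrome c oxidase, had under 0.01 FPKM in all PBLI libraries, against 16.3, 17.1 and 0.0103 FPKM in Control libraries. The mt-Co2 mRNA had 48.8, 43.5 and 45.1 FPKM in PBLI libraries, against 32.7, 17.9 and 47.1 FPKM in Control libraries. AK018679 on Cd47, the surface protein that restrains phagocytosis, had 9.59, 11.4 and 7.71 FPKM in PBLI libraries, against 16.3, 18.3 and 24.6 FPKM in Control libraries, a difference of -1.0 ± 0.21 (SE) that did not pass (limma, adjusted p = 0.293). The Cd47 mRNA had 179, 177 and 177 FPKM in PBLI libraries, against 154, 168 and 165 FPKM in Control libraries. Both members were picked on their values.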
